A study of Mus musculus with 10 samples.

Results

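The transcripts described here are those of the nuclear-encoded subunits of the mitochondrial respiratory chain and ATP synthase, taken from sorted mouse tumour-associated macrophages. A locus was a member when 1 of its symbols, pseudogene names with "-ps" left out, began with Nduf, Uqcr, Atp5, Cox4, Cox5, Cox6, Cox7 or Cox8, or was Cyc1, Cycs, Sdhb, Sdhc or Sdhd. This gave 92 of the 46956 loci with a symbol. They comprise 36 loci of complex I, 3 of complex II, 9 of complex III with Cyc1, Cycs alone for cytochrome c, 19 of complex IV with Ndufa4 and Ndufa4l2, 15 of complex V, and 9 whose products are assembly factors or related proteins and no subunits (Ndufaf1 to Ndufaf7, Atp5s and Atp5sl). Of these, 88 passed the filter on low counts and were tested. The other 4, Ndufa4l2, Cox7b2, Cox8b and Cox8c, are all assigned to complex IV. Cox4i1, the general isoform of subunit 4, was not analysed here, and Sdha falls outside the rule. The loci of Atp5g2, Atp5o (with Donson), Ndufb8 and Ndufb2 (with Adck2 and Gm42420) list further genes, and many members have processed pseudogenes; how fragments that fit several places were counted is not given in the sources used here.

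Oxidative phosphorylation passes electrons from NADH (complex I) and succinate (complex II) through ubiquinone, complex III and cytochrome c to oxygen at complex IV, and complex V makes ATP from the proton gradient that complexes I, III and IV build. All 4 subunits of complex II are encoded in the nucleus, whereas the other complexes also contain subunits encoded by mitochondrial DNA. Macrophages are known to shift between oxidative phosphorylation and glycolysis with their activation state, and glutamine is a carbon source for the tricarboxylic acid cycle that feeds the chain.

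BALB/cJ mice carried tumours of 4T1 cells, a mouse mammary carcinoma line, in a mammary fat pad, and every sample of both groups comes from such a tumour. The vehicle group (5 samples) received PBS. The JHU083 group (5 samples) received JHU083, a prodrug of the glutamine antagonist DON, at 1 mg/kg from day 7 to day 13, and the tumours of both groups were harvested on day 14. Macrophages were sorted as live cells positive for CD45, CD11b and F4/80 and negative for CD8, Ly6C and Ly6G, and polyadenylated RNA was sequenced. The labels give no age, and do not say whether a sample is 1 mouse or a pool, so the p-values measure the spread between these samples.

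The libraries held 11147721 to 15740484 fragments, and the JHU083 libraries were deeper (exact two-sided permutation test, p = 0.0238, n = 5 and 5). Macrophage genes were detected in every library: the summed CPM (the usual counts relative to library size, here scaled by TMM) of 10 markers was 13505 to 17247 with vehicle and 15955 to 20178 with JHU083, and 4 of the 10 rose. Transcripts of other cells were present and differed between groups. All 10 tumour epithelial markers fell, with a summed CPM of 302 to 660.3 with vehicle and 104 to 221 with JHU083. Of the fibroblast markers 5 of 7 fell (summed CPM 103 to 226 and 25.9 to 115), and of 12 cell cycle genes 10 fell (summed CPM 862 to 1047 and 511 to 609). Markers of T and NK cells summed to 18.5 to 24.5 and 30.5 to 49.0 CPM and those of dendritic cells to 8.68 to 11.05 and 12.8 to 26.3 CPM, with vehicle and with JHU083, and neither pair of ranges overlapped. Of these, 1 of 3 tested T and NK cell markers (Cd4) and 1 of 5 tested dendritic cell markers (Cd209a) rose. The ranges overlapped for markers of neutrophils (98.3 to 111 and 98.6 to 151), eosinophils (3.68 to 10.6 and 6.64 to 17.4) and B cells (2.72 to 3.77 and 3.47 to 5.14). Single markers of these cells still passed: of 6 tested neutrophil markers 2 fell and 1 rose, and 1 of 3 tested eosinophil markers and the 1 tested B cell marker rose. Markers of erythroid cells summed to 1.36 to 2.35 and 0 to 0.136 CPM. No marker on these lists was at 0 in all libraries, and the part of these shifts in the results on oxidative phosphorylation genes was not tested. In 5 libraries, 3 of them vehicle and 2 JHU083, the ribosomal RNA loci Rn18s-rs5 and Gm42418 were at 0.

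One library stood apart for the genes described here. JHU083 replicate 3 had the highest value of its group for 78 of the 88 tested members (88.6%), against 32.7% of all tested loci. Relative to the vehicle mean, the median member lay at 0.14 on the log2 scale in JHU083 replicate 3, and at -0.26, -0.42, -0.18 and -0.29 in JHU083 replicates 1, 2, 4 and 5. This was not particular to the members. Other tested loci of like length, described below, had a median of 0.13 in JHU083 replicate 3, and of -0.15, -0.24, -0.09 and -0.16 in JHU083 replicates 1, 2, 4 and 5. JHU083 replicate 3 also held 20178 summed CPM of macrophage markers, against 15955 to 18142 in the other JHU083 libraries. Its tumour epithelial markers summed to 104 CPM against 135 to 221, and its fibroblast markers to 25.9 CPM against 69.7 to 115. It was also the library with the fewest loci detected, 17457. The part of these values in the position of this library was not tested, and the genes given below with a value in every library have their difference with all 10 libraries and without it.

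With JHU083, 21 of the 88 tested members fell and 1, Cox6b2, rose (edgeR's quasi-likelihood test, Benjamini-Hochberg adjusted p under 0.05 over 12500 tested loci). This is 23.9% of members lower, while over all tested loci 18.3% were lower and 18.4% higher. The median log2 fold change of members was -0.20 and that of all tested loci 0.01, and the value was negative for 78 of 88 members, against 48.9% of all loci. Most of the differences were small: apart from Cox4i2, Cox5a and Cox6b2, every member past the threshold lay between -0.50 and -0.26. In bulk samples such as these, fewer cells of a type and less RNA per cell cannot be told apart. The 2 groups of 5 libraries did not overlap for only 2 members, Cox4i2 (lower) and Cox6b2 (higher), while 11.1% of all tested loci were separated as lower and 11.2% as higher.

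**Figure D1:**
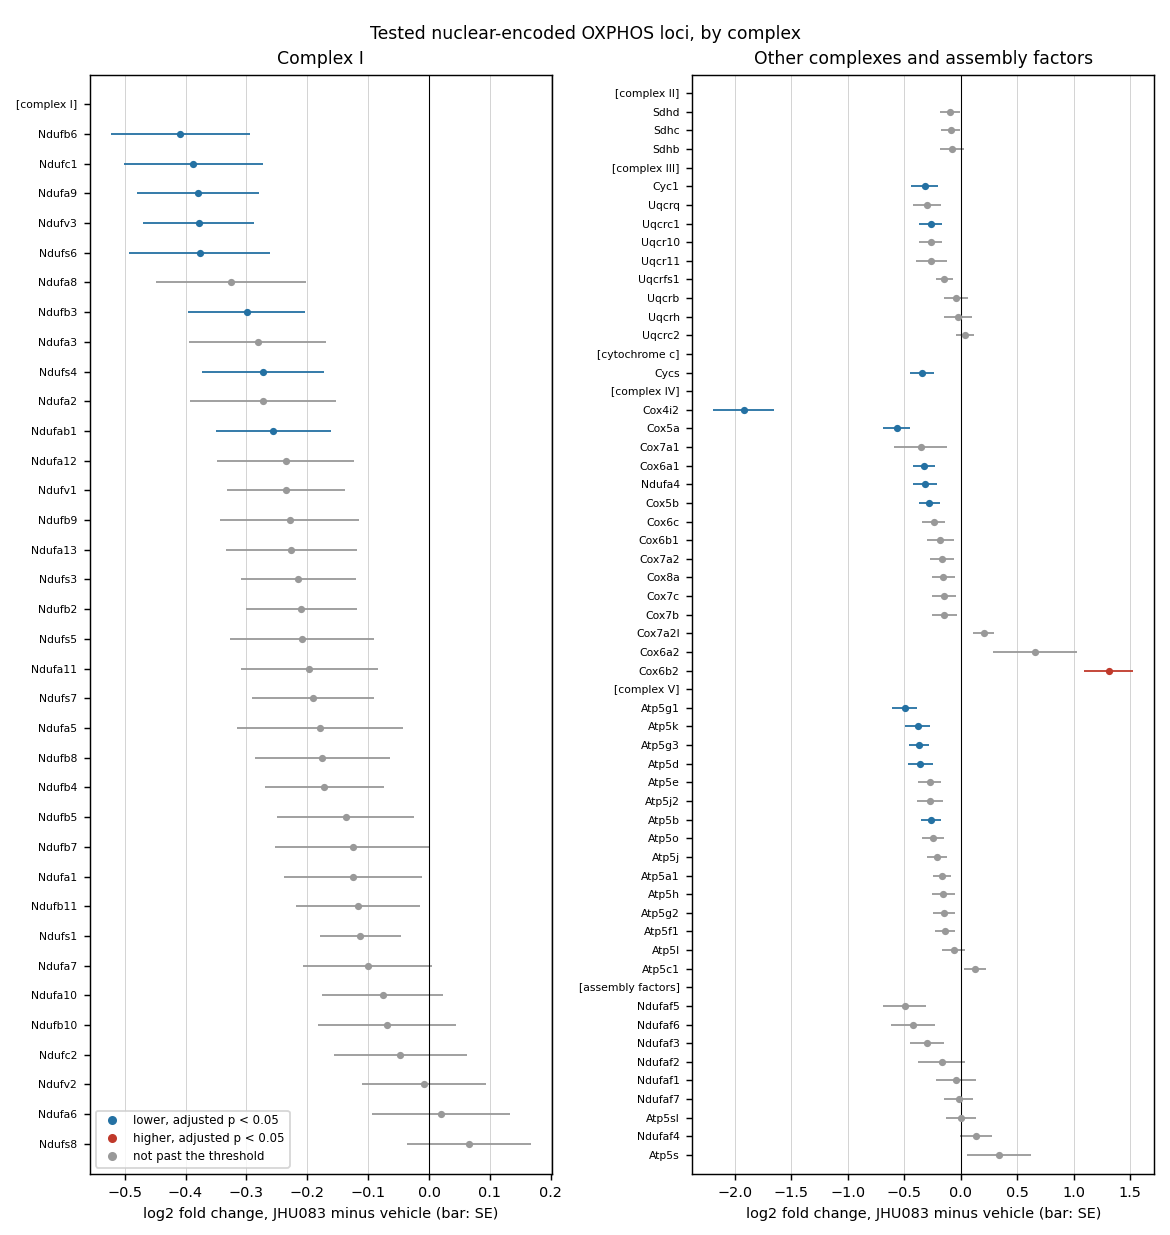
Log2 fold change, JHU083 minus vehicle, of the tested members, 1 of complex I left out, each with its standard error, complex I in the left panel and the rest in the right panel on a wider axis. Blue points passed the threshold as lower and the red point as higher; most points lie left of 0, and Cox4i2 at -1.92 and Cox6b2 at 1.31 lie far from the rest.

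Without JHU083 replicate 3 the count of lower members was 60 of 88 (68.2%), among them all 21 named above, while 23.1% of all loci were then lower and 22.9% higher. The median member was then at -0.29, and 42 members were separated as lower between the 5 vehicle and 4 JHU083 libraries (47.7%; all loci 17.4%, and 17.6% as higher). JHU083 replicate 3 was singled out for its high values of these same members. Leaving it out lowers the JHU083 mean of every member for which it was the highest. The counts and p-values without it, here and below, are therefore a description. Of the other libraries most lowered the count when left out, with the share of all loci lower given after each. It was 9 without vehicle replicate 1 (15.1%), 12 without JHU083 replicate 2 (16.2%) or 5 (15.3%), and 13 without vehicle replicate 5 (15.9%) or JHU083 replicate 4 (15.4%). It was 14 without vehicle replicate 4 (16.1%) or JHU083 replicate 1 (16.5%), 18 without vehicle replicate 2 (16%) and 27 without vehicle replicate 3 (17.9%). In 7 of the 10 fits the share of members called lower was below the share of all loci called lower. The lower members called in all 10 of these fits were Ndufv3, Ndufc1, Ndufb6, Ndufa9, Cox4i2, Cox5a, Atp5d, Atp5g1 and Atp5g3, and Cox6b2 was called higher in all 10.

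The count of lower members also varied with the method. DESeq2 gave 28 (19.9% of all loci), limma-voom 23 (18.6%) and limma-voom with sample quality weights 48 (23.3%). Scaling by library size only gave 47 (25.1%), upper-quartile scaling 29 (20.1%), and the ribosomal status of a library as a covariate 16 (17.4%). All of these had Cox6b2 as the 1 higher member, and the median member lay between -0.18 and -0.28.

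**Figure D2:**
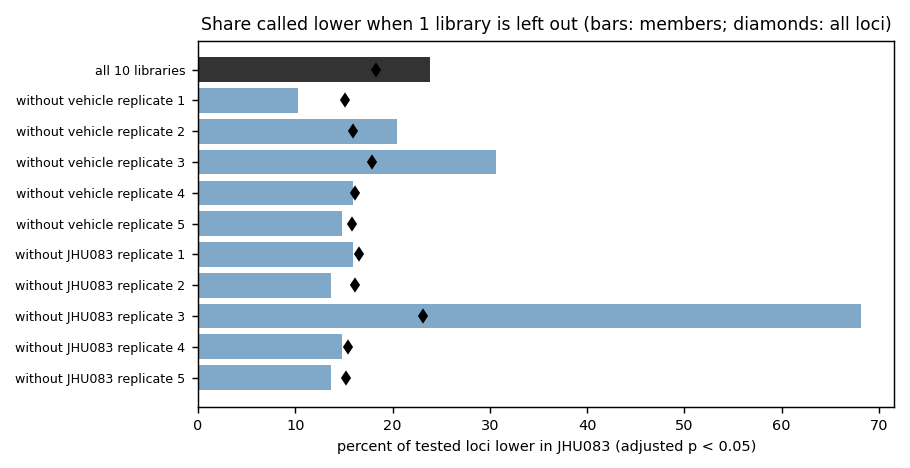
Percent of the 88 tested members called lower in JHU083 (bars) and of all tested loci (diamonds), with all 10 libraries and with each library left out. The bar reaches 68.2% without JHU083 replicate 3, where all loci reach 23.1%, and lies below the diamond in 7 of the fits.

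Members are shorter than most tested loci. The median length of members implied by the deposited values was 551 bases, against 2383 bases over the tested loci. Other tested loci of like length (1598 loci between 377 and 1077 bases, the members' lower to upper quartile) had a median log2 fold change of -0.10, and 21.4% of them were lower. Their median position in JHU083 replicate 3 was 0.13 on the log2 scale, and in the other 4 JHU083 libraries it ranged from -0.24 to -0.09. When a smooth curve on length was removed from each library, the median member was at -0.11, and 21 members were lower and 3 higher (all loci 17.9% and 23.3%). The 2 further higher members were Cox7a2l and Atp5c1. With curves on GC content and length 21 were lower and 4 higher (17.1% and 22.2%), and with the length curve and without JHU083 replicate 3 there were 36 and 3 (20.5% and 23.8%). Of the 21 members lower without a curve, Ndufs4, Uqcrc1 and Atp5b lost their call with the length curve. Those that lost it with the GC and length curves were Cyc1, Uqcrc1, Cox6a1, Atp5d, Atp5b and Atp5k. Within the 5 libraries with the ribosomal loci at 0, which include JHU083 replicate 3, only Cox4i2 was lower and Cox6b2 higher (all loci 4.61% and 4.18%), and within the other 5 libraries 21 were lower and 2 higher (11.9% and 9.83%).

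**Figure D3:**
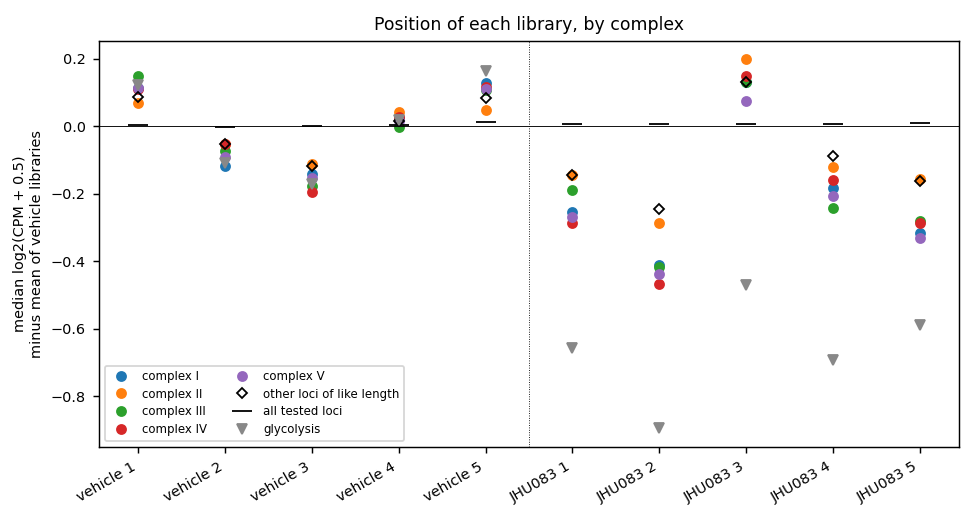
Median position of complexes I to V, of glycolysis genes, of other loci of like length and of all tested loci in each library, as log2(CPM + 0.5) minus the mean of the vehicle libraries. All 5 complexes lie above 0 in JHU083 replicate 3 and below 0 in the other JHU083 libraries, and the glycolysis genes lie below -0.4 in all 5 JHU083 libraries.

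Promoters were read for the members that RefSeq (GRCm38.p6) lists, 76 of 92, as 82 windows of the 250 bases before a transcription start. The motifs searched, on both strands, were GCGCATGC for NRF1, CCGGAAG for GABPA, AAGGTCA for ERR-alpha, AAGATGGC for YY1 and CCAAT for NF-Y, and, added after the values had been seen, ACGTG, the core of the hypoxia response element. GCGCATGC stood in 12.2% of member windows and 2.26% of all 32851 windows, CCGGAAG in 15.9% and 6.91%, and CCAAT in 42.7% and 33.8%. AAGGTCA stood in 6.10% and 4.08%, AAGATGGC in 2.44% and 1.56%, and ACGTG in 23.2% and 16.6%. Among members, GCGCATGC was in 3 of the 20 windows of lower members and in 7 of the 59 of members not past the threshold, and CCGGAAG in 2 and 11. A match describes these letters only. Windows of 5 members are printed with their genes below, on the gene's strand and 5′ to 3′, with every match to 1 of the 6 motifs in capitals.

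Complex I, the NADH dehydrogenase, had 8 of 36 subunits lower (22.2%; all loci 18.3%), 28 not past the threshold, with a median of -0.21, or -0.11 with the GC and length curves. With 1 library left out the count was lowest, at 4, without vehicle replicate 1 or 5 or JHU083 replicate 2 or 5, and highest, at 26 (72.2%; all loci 23.1%), without JHU083 replicate 3. The 8 subunits lower with all libraries were accessory subunits, which make up 29 of the 36 members of complex I. Among the core subunits, which carry the flavin and the iron-sulphur clusters, Ndufv1, which holds the flavin, had 115, 92.8, 97.1, 106 and 103 CPM with vehicle and 85.3, 75.2, 107, 91.3 and 79.1 CPM with JHU083. Only JHU083 replicate 3 lay inside the vehicle range; the difference was -0.23 ± 0.10 (SE), adjusted p = 0.0711, or -0.31 (adjusted p = 0.00605) without that library. Ndufs3 and Ndufs7 differed by -0.21 (adjusted p = 0.0911) and -0.19 (adjusted p = 0.148), and both passed as lower without JHU083 replicate 3, at -0.31 (adjusted p = 0.00314) and -0.29 (adjusted p = 0.00743). Ndufs1, Ndufv2 and Ndufs8 differed by -0.11, -0.0083 and 0.066, and did not pass with all libraries or without JHU083 replicate 3, at -0.10 (adjusted p = 0.236), -0.073 (adjusted p = 0.541) and -0.034 (adjusted p = 0.73). With the GC and length curves Ndufs8 passed as higher, at 0.23 (adjusted p = 0.00858). A difference between core and accessory subunits was not tested.

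Ndufv3, a small accessory subunit of the NADH-oxidising module, had 80.7, 68.7, 74.5, 85.6 and 87.9 CPM in vehicle replicates 1 to 5 and 57.5, 56.9, 70.2, 55.8 and 65.2 CPM in JHU083 replicates 1 to 5. Only JHU083 replicate 3 reached the range of the vehicle libraries, and the log2 fold change was -0.38 ± 0.09 (SE), adjusted p = 0.00552, or -0.43 (adjusted p = 0.00107) without that library. Ndufa9, an accessory subunit at the junction of the peripheral and membrane arms, had 100.4, 82.5, 78.0, 93.7 and 105 CPM with vehicle and 69.8, 64.0, 84.2, 69.0 and 66.6 CPM with JHU083. JHU083 replicate 3 again lay inside the vehicle range and the other JHU083 libraries below it; the log2 fold change was -0.38 ± 0.10 (SE), adjusted p = 0.00905, or -0.45 (adjusted p = 0.00119) without it.

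Ndufb6, a membrane-arm subunit, had 55.4, 45.8, 45.8, 49.5 and 52.9 CPM with vehicle and 35.3, 28.9, 47.3, 37.1 and 39.4 CPM with JHU083. Its log2 fold change was -0.41 ± 0.11 (SE), adjusted p = 0.0125, or -0.50 (adjusted p = 0.000922) without JHU083 replicate 3, whose value alone overlapped the vehicle libraries. The other lower subunits were the membrane-arm subunits Ndufc1 (-0.39) and Ndufb3 (-0.30), the NADH-module subunits Ndufs6 (-0.38) and Ndufs4 (-0.27), and Ndufab1 (-0.26), the mitochondrial acyl carrier protein, which also serves fatty acid synthesis. Ndufc1, Ndufb3 and Ndufs6 had adjusted p-values of 0.0165, 0.0261 and 0.0208; Ndufc1 passed in all 10 fits with 1 library left out, Ndufb3 in 5 and Ndufs6 in 6. Both of the latter lost their call without vehicle replicate 1 or 5 or JHU083 replicate 2 or 5, and Ndufb3 also without vehicle replicate 4. Ndufs4 and Ndufab1 had adjusted p-values of 0.0457 and 0.0473 and passed in only 2 of the 10 fits with 1 library left out, those without vehicle replicate 3 and without JHU083 replicate 3. Per length, complex I levels in vehicle samples ran from 18.2 ± 1.86 FPKM (fragments per kilobase of transcript, scaled to library size; SD, n = 5) for Ndufa11 to 244 ± 22.9 FPKM for the locus that holds Ndufb8, which also lists Gm20538 and Sec31b. Ndufa6, whose locus lies next in this order at 244 ± 25.03 FPKM, did not differ from it beyond the SD. The lower end rests on the length implied by the deposited values, 2656 bases for Ndufa11. The longest transcript annotated for Ndufa11 (GENCODE M21) has 918 bases, and its place in the order was not checked with other lengths.

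Complex II, succinate dehydrogenase, links the chain to the tricarboxylic acid cycle, and 0 of its 3 members were called (edgeR; 0 also at an unadjusted p under 0.05 and with DESeq2 or limma-voom), where 18.3% of all loci were lower and 18.4% higher. A difference between complex II and the other complexes was not tested. Sdhb, the iron-sulphur subunit, had 128, 116, 108, 125 and 131 CPM with vehicle and 109.6, 93.4, 147, 119 and 108 CPM with JHU083, a log2 difference of -0.08 ± 0.11 (SE), adjusted p = 0.604. The membrane anchors Sdhc and Sdhd had differences of -0.09 ± 0.08 (SE) and -0.10 ± 0.09 (SE), with adjusted p = 0.402 and 0.408. All 3 were highest in JHU083 replicate 3, which exceeded every vehicle library. Without it the values were -0.17 (adjusted p = 0.0943) for Sdhb, -0.15 (adjusted p = 0.0639) for Sdhc and -0.18 (adjusted p = 0.0378) for Sdhd, so that only Sdhd passed. The flavoprotein subunit Sdha, outside the rule, had 222 ± 8.84 CPM with vehicle and 226 ± 18.6 CPM with JHU083 (SD, n = 5), a difference of 0.03 with an adjusted p = 0.796.

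In complex III, the cytochrome bc1 complex, 2 of 9 subunits were lower (22.2%; all loci 18.3%), and the median was -0.26, or -0.094 with the GC and length curves. Cyc1, which carries the haem of cytochrome c1, had 133, 113, 105, 114 and 131 CPM with vehicle and 86.5, 82.1, 129, 92.5 and 89.0 CPM with JHU083. JHU083 replicate 3 was as high as the vehicle libraries and the other 4 were all lower, and the log2 fold change was -0.32 ± 0.12 (SE), adjusted p = 0.0461, or -0.45 (adjusted p = 0.000603) without it and -0.094 (adjusted p = 0.461) with the GC and length curves. Uqcrc1, a core structural subunit, had 221, 198, 187, 205 and 216 CPM with vehicle and 162, 154, 219, 169.7 and 149.9 CPM with JHU083, and log2 fold change -0.27 ± 0.10 (SE), adjusted p = 0.0485, or -0.37 (adjusted p = 0.000748) without JHU083 replicate 3 and -0.16 (adjusted p = 0.122) with those curves. Both calls were lost without any 1 of vehicle replicates 1, 2, 4 and 5 or JHU083 replicates 1, 2, 4 and 5.

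The other core subunit, Uqcrc2, had 106 ± 8.33 CPM with vehicle and 109 ± 9.38 CPM with JHU083 (SD, n = 5), a difference of 0.04 ± 0.08 (SE). Uqcrfs1, the Rieske iron-sulphur protein, differed by -0.15 (adjusted p = 0.145). The small subunits Uqcrq, Uqcr10, Uqcr11, Uqcrb and Uqcrh ranged from -0.30 to -0.02, and none passed. Without JHU083 replicate 3, Uqcrq, Uqcr10, Uqcr11 and Uqcrfs1 passed as lower with Cyc1 and Uqcrc1 (66.7% lower, all loci 23.1%), while Uqcrc2, Uqcrb and Uqcrh did not.

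Cycs, cytochrome c itself, shuttles electrons between complexes III and IV and triggers the apoptosome when released from mitochondria. Its locus lies at chr6:50562563-50566538 (GRCm38). It had 125, 114, 107, 103 and 115 CPM with vehicle and 83.5, 71.3, 111, 90.7 and 89.5 CPM with JHU083. The vehicle libraries and JHU083 replicate 3 lay at 103 CPM or more and the other 4 JHU083 libraries below. Cycs fell, with log2 fold change -0.34 ± 0.10 (SE), adjusted p = 0.0183, or -0.43 (adjusted p = 0.000967) without JHU083 replicate 3, and the call was lost without vehicle replicate 1.

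The Cycs window, at chr6:50566570-50566819 on the minus strand (GRCm38.p6), is shown because it holds the NRF1 motif (GCATGCGC, the reverse complement) together with a CCAAT box and CACGT, the reverse complement of ACGTG.
Cycs: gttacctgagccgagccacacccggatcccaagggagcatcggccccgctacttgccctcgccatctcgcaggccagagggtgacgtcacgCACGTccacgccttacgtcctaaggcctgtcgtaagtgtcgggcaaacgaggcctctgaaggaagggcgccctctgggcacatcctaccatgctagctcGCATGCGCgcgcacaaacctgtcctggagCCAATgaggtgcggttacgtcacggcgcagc

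Complex IV, cytochrome c oxidase, held both the largest decrease and the only increase among the members. Of its 15 tested loci 5 fell (Cox4i2, Cox5a, Cox6a1, Ndufa4 and Cox5b) and 1 rose (Cox6b2), or 33.3% lower against 18.3% of all loci, with a median of -0.18. Without vehicle replicate 1 or JHU083 replicate 4 there were 2 lower (13.3%; all loci 15.1% and 15.4%), and without JHU083 replicate 3 there were 11 (73.3%; all loci 23.1%). The median was -0.10 with the length curve and -0.29 without JHU083 replicate 3. Cox4i2, known as the isoform of subunit 4 that is most expressed in lung and induced by low oxygen, lies at chr2:152754173-152765037. It had 8.76, 5.33, 3.24, 6.60 and 4.85 CPM in vehicle replicates 1 to 5, from 43 to 129 fragments, and 1.64, 1.58, 1.64, 0.917 and 1.77 CPM in JHU083 replicates 1 to 5, from 12 to 27 fragments. Every JHU083 library was below every vehicle library, and the fitted fold was 3.79-fold lower. The log2 fold change was -1.92 ± 0.27 (SE), adjusted p = 0.000112, and it was -1.95 (adjusted p = 0.000161) without JHU083 replicate 3.

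Cox4i2 is also known as a marker of pericytes. Of 6 pericyte genes listed after the Cox4i2 values had been seen (Rgs5, Notch3, Cspg4, Kcnj8, Abcc9 and Higd1b), 3 were tested and 1, Notch3, fell (-1.16 ± 0.37 (SE), adjusted p = 0.0258). The other 2 tested, Rgs5 and Abcc9, differed by -0.08 ± 0.42 (SE) and 0.97 ± 0.37 (SE), with adjusted p = 0.899 and 0.0557, and the median of the 3 was -0.079. Their summed CPM was 2.90 to 7.77 with vehicle and 2.39 to 5.83 with JHU083, overlapping ranges. Of 5 endothelial markers 3 were tested and 1 fell, and their summed CPM was 122 to 209.6 with vehicle and 34.4 to 82.6 with JHU083. The part of such cells in the Cox4i2 values was not tested.

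Cox6b2, the isoform of subunit 6B known from testis, lies at chr7:4751792-4753094. It had 1.70, 1.37, 1.06, 1.22 and 0.939 CPM with vehicle, from 12 to 25 fragments, and 3.07, 2.60, 3.13, 3.75 and 3.21 CPM with JHU083, from 38 to 49 fragments. Here every JHU083 library was above every vehicle library and JHU083 replicate 3 lay within its group. The fitted fold was 2.48-fold higher, with log2 fold change 1.31 ± 0.22 (SE), adjusted p = 0.000424, or 1.32 (adjusted p = 0.000644) without JHU083 replicate 3. Its ubiquitous partner Cox6b1 had 143 ± 18.0 CPM with vehicle and 126 ± 23.2 CPM with JHU083 (SD, n = 5), a difference of -0.18 ± 0.12 (SE), adjusted p = 0.254, or -0.29 (adjusted p = 0.0267) without that library. Both Cox4i2 and Cox6b2 kept their direction and passed the threshold under all 30 alternatives run.

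The Cox6b2 window, at chr7:4753095-4753344 on the minus strand, is shown because Cox6b2 was the only member that rose. Its 2 marked matches are CCAAT boxes read as ATTGG, and none of the other 5 motifs was found in these 250 bases.
Cox6b2: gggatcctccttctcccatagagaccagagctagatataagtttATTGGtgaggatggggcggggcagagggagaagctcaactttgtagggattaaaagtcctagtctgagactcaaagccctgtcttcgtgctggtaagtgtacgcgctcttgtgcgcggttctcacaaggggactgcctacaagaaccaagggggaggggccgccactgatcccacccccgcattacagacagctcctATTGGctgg

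**Figure D4:**
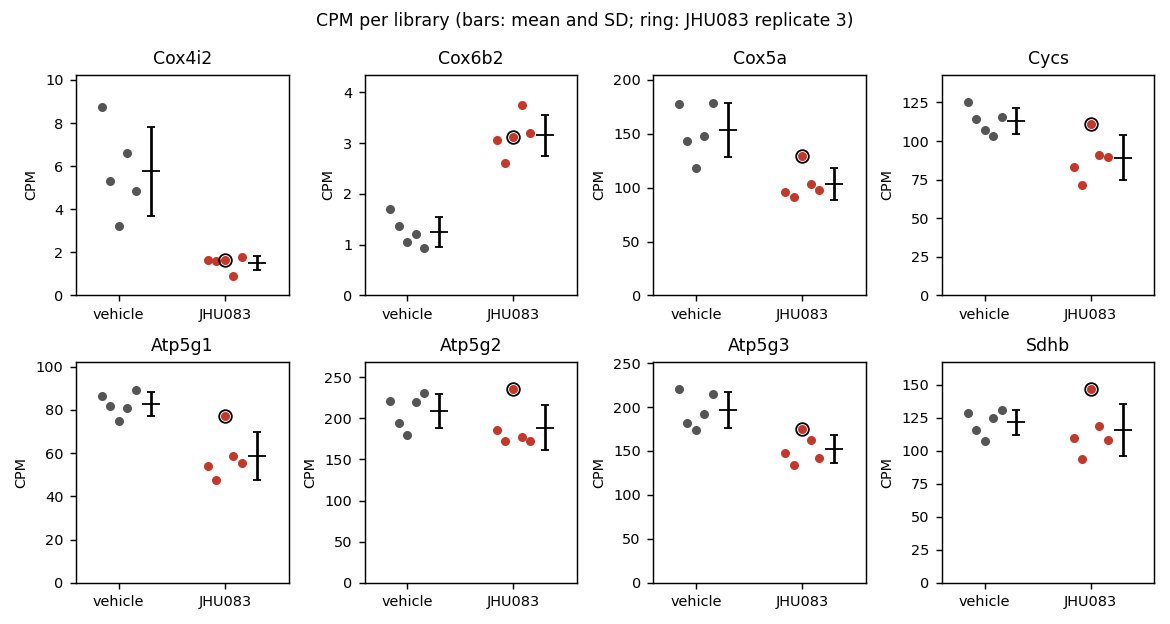
CPM in each library for 8 members, with mean and SD; the ring marks JHU083 replicate 3 and each axis starts at 0. Cox4i2 and Cox6b2 separate the groups in all libraries, whereas for Cox5a, Cycs and the Atp5g genes JHU083 replicate 3 lies within or above the vehicle values, and for Sdhb it lies above them.

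Among the abundant subunits of complex IV, Cox5a, which binds near the catalytic core, fell most. It lies at chr9:57521274-57532426 and had 178, 144, 119, 148 and 178 CPM with vehicle and 95.9, 91.1, 129, 103 and 97.5 CPM with JHU083. Vehicle replicate 3 and JHU083 replicate 3 overlapped, and the other libraries were separated; the log2 fold change was -0.57 ± 0.12 (SE), adjusted p = 0.00238, or -0.66 (adjusted p = 0.000264) without JHU083 replicate 3. Cox6a1, the general isoform of subunit 6A, had 344, 287, 288, 318 and 341 CPM with vehicle and 232, 221, 318, 236 and 255 CPM with JHU083. It fell by 0.32 ± 0.10 (SE) on the log2 scale, adjusted p = 0.0208, or -0.42 (adjusted p = 0.000562) without JHU083 replicate 3, and the call was lost without vehicle replicate 1 or JHU083 replicate 4, and with the GC and length curves, at -0.13 (adjusted p = 0.225). Its muscle isoform Cox6a2 was near the lower limit of counting, at 1.04 ± 0.562 and 1.63 ± 0.557 CPM, with a difference of 0.66 ± 0.37 (SE) and an adjusted p = 0.177.

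The windows of both genes, Cox5a at chr9:57520982-57521231 on the plus strand and Cox6a1 at chr5:115348982-115349208 on the minus strand, are shown as those of the abundant complex IV subunits with the largest decreases. Cox5a holds 1 ACGTG, and Cox6a1 holds 2 overlapping NRF1 motifs on opposite strands and 1 CCAAT box. The Cox6a1 stretch is 227 bases, since the 23 bases next to the RefSeq start lie inside the gene's GENCODE span.
Cox5a: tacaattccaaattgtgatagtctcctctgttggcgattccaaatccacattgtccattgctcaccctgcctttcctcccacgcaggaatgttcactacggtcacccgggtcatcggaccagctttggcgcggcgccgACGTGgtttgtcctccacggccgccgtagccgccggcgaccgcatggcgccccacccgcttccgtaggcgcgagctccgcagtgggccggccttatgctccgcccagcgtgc
Cox6a1: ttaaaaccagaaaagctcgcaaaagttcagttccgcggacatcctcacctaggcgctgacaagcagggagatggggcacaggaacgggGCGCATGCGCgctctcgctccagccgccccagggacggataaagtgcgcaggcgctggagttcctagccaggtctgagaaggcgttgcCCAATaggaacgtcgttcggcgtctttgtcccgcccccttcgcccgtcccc

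Cox5b, a zinc-binding subunit, and Ndufa4, named for complex I but assigned to complex IV, fell with log2 fold changes of -0.28 ± 0.10 (SE) and -0.32 ± 0.11 (SE). Ndufa4 had 95.5, 78.9, 71.3, 81.2 and 77.9 CPM with vehicle and 57.5, 57.2, 80.9, 67.0 and 62.8 CPM with JHU083, adjusted p = 0.0308, or -0.40 (adjusted p = 0.00216) without JHU083 replicate 3, the only JHU083 library inside the vehicle range. Its paralog Ndufa4l2 held 0 to 9 fragments per library and was not tested. The paralog AA467197, whose locus also lists Mir147, had 7.88 ± 1.77 CPM with vehicle and 5.30 ± 1.78 CPM with JHU083, a difference of -0.58 ± 0.24 (SE), adjusted p = 0.074. Calls for Cox5b and Ndufa4 held in 3 and 4 of the 10 fits with 1 library left out.

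Of the subunit 7A genes, the muscle isoform Cox7a1 had 3.50 ± 0.854 and 2.73 ± 0.837 CPM (difference -0.35, adjusted p = 0.248), and the general isoform Cox7a2 68.2 ± 5.42 and 60.8 ± 10.3 CPM (-0.17, adjusted p = 0.243), each first with vehicle and then with JHU083 (SD, n = 5). Cox7a2l, which takes part in joining complexes III and IV into supercomplexes, had 256, 217, 217, 242 and 257 CPM with vehicle and 268, 241, 325, 292 and 244 CPM with JHU083. Its difference was positive, 0.20 ± 0.09 (SE), adjusted p = 0.0947, and 0.14 (adjusted p = 0.17) without JHU083 replicate 3. Cox7a2l passed as higher with the length correction (0.31, adjusted p = 0.00131). Cox7b and Cox8a, the general isoforms of their subunits, differed by -0.15 (adjusted p = 0.315) and -0.15 (adjusted p = 0.241); both passed as lower without JHU083 replicate 3, at -0.24 (adjusted p = 0.0373) and -0.23 (adjusted p = 0.0353). The testis isoforms Cox7b2 and Cox8c and the muscle isoform Cox8b were listed at 0 FPKM in all libraries.

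Isoforms were also set per length within a family; these families were compared after single values had been seen, so the shares are a description. Cox6b2 made up 1.35, 1.75, 1.41, 1.21 and 0.700% of Cox6b FPKM in the vehicle libraries and 3.54, 3.48, 2.58, 3.76 and 3.97% in the JHU083 libraries, with no overlap. Cox7a1 made up 4.60 ± 0.892% of Cox7a FPKM with vehicle and 3.38 ± 0.658% with JHU083, and Cox7a2 30.1 ± 0.888% and 25.3 ± 1.35%, while the share of Cox7a2l was 65.3 ± 0.933% and 71.3 ± 1.77% (SD, n = 5). The shares of Cox7a2 and Cox7a2l did not overlap between groups, JHU083 replicate 3 included, whereas those of Cox7a1 did. Cox6a2 made up 0.255 ± 0.147% and 0.511 ± 0.214% of Cox6a FPKM, with overlapping groups.

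Complex V, the ATP synthase, had 5 of 15 members lower (Atp5g1, Atp5k, Atp5g3, Atp5d and Atp5b; 33.3% against 18.3% of all loci) and a median of -0.24, or -0.14 with the length curve. The count was 3 without vehicle replicate 1 (20%; all loci 15.1%). Atp5g1, Atp5g2 and Atp5g3 encode the same mature subunit c, which forms the rotor ring in the membrane, with different import sequences. Atp5g1, at chr11:96068852-96075670, had 86.6, 81.7, 75.1, 80.7 and 89.2 CPM with vehicle and 54.1, 47.6, 77.2, 58.8 and 55.3 CPM with JHU083. JHU083 replicate 3 lay inside the vehicle range and the other JHU083 libraries below it, and the log2 fold change was -0.50 ± 0.11 (SE), adjusted p = 0.00344, or -0.61 (adjusted p = 4.71e-05) without it.

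The Atp5g1 window, at chr11:96075671-96075881 on the minus strand, is shown for the largest decrease in complex V. It holds 5 CCAAT boxes, 2 of them overlapping on opposite strands, and 2 matches to ACGTG, 1 of them read as CACGT. The stretch is 211 bases, without the 39 bases inside the gene's GENCODE span.
Atp5g1: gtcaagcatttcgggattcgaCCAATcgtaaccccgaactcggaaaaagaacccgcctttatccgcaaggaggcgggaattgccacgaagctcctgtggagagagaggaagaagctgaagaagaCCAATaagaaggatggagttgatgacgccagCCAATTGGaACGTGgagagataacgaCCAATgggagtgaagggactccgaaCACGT

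Atp5g3 had 220.2, 181, 174, 193 and 215 CPM with vehicle and 147, 135, 175, 162 and 142 CPM with JHU083, and fell with log2 fold change -0.37 ± 0.09 (SE), adjusted p = 0.00592, or -0.42 (adjusted p = 0.00113) without JHU083 replicate 3. Atp5g2, whose locus also lists Mir688, had 221, 195, 179, 219.9 and 230.4 CPM with vehicle and 185, 172, 236, 177 and 172 CPM with JHU083. JHU083 replicate 3 was the highest of all 10 libraries for Atp5g2; the difference was -0.15 ± 0.10 (SE), adjusted p = 0.259, or -0.24 (adjusted p = 0.0215) without it. As a share of the FPKM of the 3 genes, Atp5g1 made up 17.6, 19.3, 19.2, 18.2 and 18.8% in the vehicle libraries and 15.3, 14.8, 17.2, 15.7 and 16.6% in the JHU083 libraries. The share of Atp5g2 was 41.4 ± 1.01% with vehicle and 46.0 ± 1.57% with JHU083 (SD, n = 5), and neither share overlapped between the groups; these shares too were set side by side after the values had been seen.

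Atp5k, a subunit of the membrane part near the dimer contact, had 46.8, 34.9, 34.2, 39.8 and 42.4 CPM with vehicle and 30.2, 24.8, 36.4, 30.5 and 30.4 CPM with JHU083, with log2 fold change -0.38 ± 0.11 (SE), adjusted p = 0.0167, or -0.45 (adjusted p = 0.00323) without JHU083 replicate 3; the call was lost without vehicle replicate 1 and with the GC and length curves, at -0.23 (adjusted p = 0.0556). Atp5d, of the central stalk, fell by 0.36 ± 0.11 (SE) on the log2 scale, adjusted p = 0.0182, or -0.45 (adjusted p = 0.000915) without JHU083 replicate 3, but it was -0.13 (adjusted p = 0.199) and no longer past the threshold with the GC and length curves. Atp5b, the catalytic beta subunit, had the highest deposited FPKM of the members, at 969 ± 35.2 with vehicle and 839 ± 103 with JHU083 (SD, n = 5). That rank rests on the length implied by the deposited values, 1132 bases, where its longest GENCODE transcript has 1916. Other lengths were not tried. Atp5b had log2 fold change -0.26 ± 0.09 (SE), adjusted p = 0.0283, or -0.33 (adjusted p = 0.0023) without JHU083 replicate 3, and passed in 4 of the 10 fits with 1 library left out; with the GC and length curves it was -0.17 (adjusted p = 0.0529). Its partner in the catalytic head, Atp5a1, differed by -0.16 ± 0.08 (SE), adjusted p = 0.131, and passed without JHU083 replicate 3 at -0.23 (adjusted p = 0.0142).

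The gamma subunit Atp5c1, the shaft of the central stalk, had the only positive difference in complex V, 0.13 ± 0.10 (SE), adjusted p = 0.316. The stator and membrane subunits Atp5f1, Atp5h, Atp5o, Atp5j, Atp5j2 and Atp5l and the stalk subunit Atp5e ranged from -0.27 to -0.06, and none passed. Without JHU083 replicate 3, 13 of the 15 members of complex V passed as lower (86.7%; all loci 23.1%), all but Atp5c1 (0.05 (adjusted p = 0.646)) and Atp5l (-0.12 (adjusted p = 0.276)).

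After Atp5b, the highest levels per length in vehicle samples were those of Cox6a1 (817 ± 68.2 FPKM), Cox8a (814 ± 91.4 FPKM), Atp5e (727 ± 81.0 FPKM) and Uqcrq (483 ± 63.9 FPKM; SD, n = 5). Each of Cox6a1, Cox8a and Atp5e differed from its neighbour in this order by less than the SD of Cox8a, whereas Uqcrq was lower than all 3 by more than that. The assembly factors that the rule caught were expressed far lower, from 1.05 ± 0.318 FPKM for Atp5s to 12.7 ± 2.76 FPKM for Ndufaf2.

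None of the 9 assembly factors and related proteins passed in edgeR (1 at an unadjusted p under 0.05), and their median was -0.04. As lower, 1 passed with DESeq2, 1 with limma-voom and 2 with sample quality weights. Of all loci 18.3% were lower in edgeR, 19.9% with DESeq2, 18.6% with limma-voom and 23.3% with the weights. Ndufaf5, a complex I assembly factor, came closest. It had 7.74, 7.31, 8.30, 7.30 and 8.85 CPM with vehicle and 4.77, 4.18, 8.87, 5.89 and 4.39 CPM with JHU083, with a difference of -0.50 ± 0.19 (SE), adjusted p = 0.0555, and passed without JHU083 replicate 3 at -0.72 (adjusted p = 0.00123). Ndufaf3 also passed without that library, at -0.47 (adjusted p = 0.00375). Of 40 further assembly factors of complexes I to V outside the rule, 39 were tested, 8 fell (Acad9, Uqcc2, Cox14, Cox17, Cox18, Coa3, Coa5 and Atpaf2) and 1 rose (Cox16, whose locus also lists Gm20498 and Synj2bp), with a median of -0.10. The share lower was 20.5%, against 18.3% of all loci. Without JHU083 replicate 3 there were 12 lower, where 23.1% of all loci were lower, and the median was -0.17. Cox18, which inserts a mitochondrially encoded subunit of complex IV into the membrane, had 15.8, 10.4, 10.4, 10.7 and 14.4 CPM with vehicle and 8.32, 6.37, 8.95, 8.41 and 7.73 CPM with JHU083, log2 fold change -0.63 ± 0.15 (SE), adjusted p = 0.00463, or -0.68 (adjusted p = 0.00308) without JHU083 replicate 3.

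Subunits encoded by mitochondrial DNA were examined beside the nuclear-encoded ones. The 13 protein genes of the mitochondrial genome fall in 4 loci of the tables, 3 of which merge several genes, and 4 of 4 rose, also without JHU083 replicate 3 (higher among all loci: 18.4%). The locus of mt-Nd6, a complex I subunit and the only 1 of these genes with a locus of its own, had 162, 155, 156, 176 and 166 CPM with vehicle and 285, 249.7, 232, 268 and 286 CPM with JHU083. All JHU083 libraries were above all vehicle libraries, and the log2 fold change was 0.70 ± 0.07 (SE), adjusted p = 1.51e-05, or 0.74 (adjusted p = 3.68e-06) without JHU083 replicate 3. The locus of mt-Cytb with a transfer RNA rose by 0.41 ± 0.11 (SE) (adjusted p = 0.0103). The locus from mt-Co1 to mt-Nd5 rose by 0.40 ± 0.11 (SE) (adjusted p = 0.0123), and that of mt-Nd1 and mt-Nd2, which also holds both mitochondrial ribosomal RNAs, by 0.53 ± 0.15 (SE) (adjusted p = 0.0122). The difference between mitochondrially and nuclear-encoded subunits was not tested.

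The summed CPM of the 92 nuclear-encoded loci was 10508, 9196, 8788, 9831 and 10468 in vehicle replicates 1 to 5 and 8158, 7427, 10456, 8595 and 7998 in JHU083 replicates 1 to 5, with JHU083 replicate 3 inside the vehicle range and the other 4 below it. The summed CPM of the 4 mitochondrial loci was 15135 to 20199 with vehicle and 21404 to 25441 with JHU083. Their ratio, mitochondrial over nuclear, was 1.44, 1.85, 1.95, 2.05 and 1.69 in the vehicle libraries and 2.98, 2.88, 2.43, 2.96 and 2.79 in the JHU083 libraries. The ratio did not overlap between groups, and here JHU083 replicate 3 was the lowest of its group and still above every vehicle library. By complex, the mean summed CPM with JHU083 was 12.2% below vehicle for complex I, 5.87% for complex II, 12.4% for complex III, 12.0% for complex IV and 13.7% for complex V. Without JHU083 replicate 3 these were 17.6, 11.3, 18.1, 17.2 and 18.0% below vehicle.

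**Figure D5:**
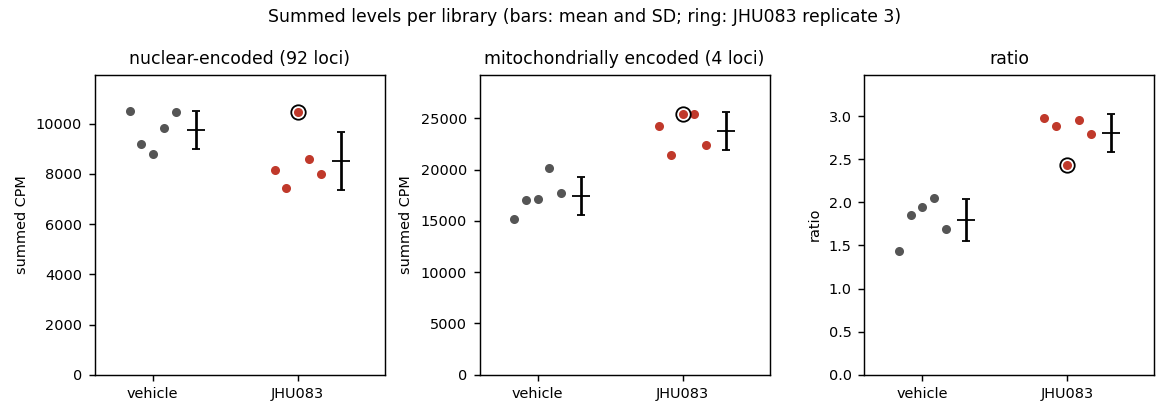
Summed CPM per library of the 92 nuclear-encoded loci (left), of the 4 mitochondrially encoded loci (middle) and their ratio (right), with mean and SD; the ring marks JHU083 replicate 3. The groups overlap in the left panel through JHU083 replicate 3 and do not overlap in the middle and right panels.

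Among proteins that work with the complexes, 2 of 10 fell (20%, all loci 18.3%), and 3 without JHU083 replicate 3 (all loci 23.1%). Atpif1, the inhibitor of ATP synthase hydrolysis, had 116, 104, 90.2, 105 and 113 CPM with vehicle and 76.0, 67.6, 99.0, 72.9 and 78.6 CPM with JHU083, log2 fold change -0.42 ± 0.10 (SE), adjusted p = 0.00585, or -0.51 (adjusted p = 0.000226) without JHU083 replicate 3. Higd1a, a hypoxia-inducible protein of the inner membrane, fell with -0.50 ± 0.11 (SE), adjusted p = 0.00279. Of 7 carriers and channels (14.3% lower) only Vdac1, an outer membrane channel, was lower (-0.45 ± 0.08 (SE), adjusted p = 0.000926), while the adenine nucleotide carriers Slc25a4 and Slc25a5 differed by 0.06 and 0.05. Of 11 tested regulators of mitochondrial biogenesis (9.09% lower) only Pprc1, a coactivator related to PGC-1, was lower (-0.44 ± 0.11 (SE), adjusted p = 0.00621). Both of these lists had 2 lower without JHU083 replicate 3, where 23.1% of all loci were lower. The transcription factors Nrf1, Gabpa and Esrra and the mitochondrial factor Tfam differed by -0.18, 0.13, -0.13 and -0.05, and none passed; Ppargc1a was below the filter.

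Of 15 glycolysis genes 13 fell, with a median of -0.63 (-0.69 and again 13 without JHU083 replicate 3), and in 12 of them no library of one group overlapped the other group. Of all loci 18.3% were lower (23.1% without that library) and 11.1% were separated as lower. Ldha, lactate dehydrogenase A, differed by -0.80 ± 0.12 (SE) and Hk3, a hexokinase, by -1.10 ± 0.12 (SE), with adjusted p = 0.000236 and 1.37e-05, and without JHU083 replicate 3 by -0.89 (adjusted p = 3.14e-05) and -1.13 (adjusted p = 1.16e-05). In JHU083 replicate 3 the median glycolysis gene lay at -0.47 on the log2 scale relative to the vehicle mean, and in the other 4 JHU083 libraries between -0.89 and -0.59. The difference between the 2 pathways was not tested.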

How the data were processed

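RNA-seq was carried out on 10 samples, 5 per group by the treatment in the labels. Per the submitters' processing notes bcl2fastq 2.17.1.14, FastQC 0.11.2, TopHat2 2.1.1 and GRCm38 were used; the counting program is not given in the sources used here. The authors deposited expected counts (a column headed as raw counts) that, as inferred from the values, are whole fragments times a step per library (0.888 to 1.17); how they were made is not given in the sources used here. Dividing by the step gave whole numbers within 0.02 for 97.4% to 99.4% of values, which were rounded. The second column the authors deposited is FPKM, as inferred from the values, and was used for levels per length, for shares and for lengths. The 1 locus without a symbol (0.00169% of fragments) was left out.

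Counts were filtered with filterByExpr, scaled by TMM and tested with the quasi-likelihood test of edgeR 4.0.16 (R 4.3.3) over all loci; SE is the absolute log2 fold change divided by the square root of F. Named in full were, per complex, the 3 called members with the smallest adjusted p in each direction, called members with an absolute log2 fold change of at least 0.5, isoforms with their partners, the succinate dehydrogenase subunits, Cyc1 and Cycs; other members were named after their values were seen. The results of 1 complex I member are not reported here by name. The members and lists were chosen with earlier results of these data known. The alternatives tried were limma-voom from limma 3.58.1, plain and with sample quality weights, DESeq2 1.42.0, other scalings and filters, the ribosomal loci, a replicate block, length and GC curves, and leaving out each library. The GC and length curve with the block, and the length curve without JHU083 replicate 3, were chosen after seeing the data. JHU083 replicate 3 was likewise singled out after the members' values had been seen. Gene positions are from GENCODE M21, matched by symbol (91 of 92 members), and promoter sequences from RefSeq. At the shallowest library 3 fragments correspond to 0.269 CPM.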

Additional observations from a re-analysis of the deposited data

Results flagged for a closer look

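In 92 groups of 5 values examined, 7 had 1 library far from the other 4, its distance to the nearest exceeding 0.71 of the group's range; about 4.6 such groups are expected by chance. In 6 of the 7 this was JHU083 replicate 3 as the highest of its group: Ndufa9 at 84.25 CPM (the others 63.95 to 69.83), Sdhd at 167.7 CPM (122.5 to 135.2), Cyc1 at 128.7 CPM (82.12 to 92.51), Uqcrc1 at 219.4 CPM (149.9 to 169.7), Cox7a1 at 4.175 CPM (2.114 to 2.685) and Atp5g2 at 236.3 CPM (172 to 185.5). The seventh was Cox4i2, where JHU083 replicate 4 was the lowest at 0.9175 CPM (the others 1.577 to 1.768).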

How the results depend on the processing

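Across 30 alternatives the median member stayed negative in all, and 667 of 749 comparisons of named members kept direction and call; 55 lost and 15 gained a call. These cover the 25 tested members that the naming rule selects; other members near 0 also changed sign, such as Uqcrc2 (-0.0082 without JHU083 replicate 3) and Uqcrh (0.137 within the libraries with ribosomal loci at 0). Of the 749, 12 changed sign, none past the threshold. Within the libraries with ribosomal loci at 0 they were Sdhc 0.0740, Sdhb 0.0528 and Cox6a2 -0.161. With the length curve they were Sdhc 0.000208 and Sdhb 0.0223 (0.0182 with the replicate block), and with GC and length curves, without and with the replicate block, Sdhb 0.0585 and 0.0556, Cox8a 0.0384 and 0.0409, and Atp5g2 0.0526 and 0.0550.

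Lower members numbered 21. They were 47 with library size only (complexes I, III and V: 22, 6 and 11), 48 with sample quality weights (21, 6 and 11), 1 within the libraries with ribosomal loci at 0 (complexes I, III, IV and V: 0, 0, 1 and 0), and 36 with the length curve and without JHU083 replicate 3 (I, III and V: 15, 4 and 8). Complex V had 8 lower with DESeq2 or upper-quartile scaling. Complex III had 0 with the ribosomal status as a covariate and with the GC and length curves. With 1 library left out, the lower members ranged from 9 to 60, with 4 to 26 in complex I, 0 to 6 in III, 2 to 11 in IV and 3 to 13 in V. Higher members numbered 1, and were 3 with the length curve (also with the block, and without JHU083 replicate 3), 4 with GC and length curves (3 with the block), and 2 within the libraries with ribosomal loci above 0. Within the libraries with ribosomal loci at 0 the median was -0.0742 over members, -0.0785 for complex I, 0.0528 for II, -0.0804 for III and -0.0768 for V. With the length curve it was -0.127 for complex I, 0.000208 for II, -0.101 for IV, -0.138 for V and 0.0104 for assembly factors (0.00993 with the block), and with the GC and length curves -0.128 over members, -0.108 for complex I, -0.0276 for II and -0.0944 for III. With 1 library left out assembly factors ranged from -0.144 to 0.0121, complex II from -0.175 to -0.0429 and complex IV from -0.289 to -0.114 (lowest without JHU083 replicate 3, highest without JHU083 replicate 2, for both complexes). The causes were not tested. Library size only also changed the split of all loci, to 1564 higher and 3141 lower from 2296 and 2293.

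The labels number samples 1 to 5 in both groups without stating a pairing. Deviations of same-numbered samples correlated at -0.20, 0.09, -0.57, -0.12 and -0.16, and no sample correlated best with its own number, so the samples were treated as sharing only a number; whether equal numbers mark a shared cage or day is not given. With the number as a replicate block 12 members were lower (all loci 14.1%; 4 in complex I, 0 in III and 3 in IV). With the length curve and the block complexes I, III and IV had 5, 0 and 3 lower (all loci 15.7%). With GC and length curves and the block complexes III and V had 0 and 3 (all loci 15.0%). Cox4i2 and Cox6b2 rest on 12 to 129 and 12 to 49 fragments per library, and 4 complex IV isoforms were below the filter, so changes in those were not detectable at this depth.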
